A study of Mus musculus with 39 samples.

Results

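The 8 arrays described here come from the livers of PPARα-null mice given perfluorooctanoic acid (PFOA) at 3 mg/kg (4 arrays) or at 1 mg/kg (4 arrays), chosen by their titles from the 39 arrays of the series. All mice were adult males on the 129SV background, dosed by gavage on 7 consecutive days with the ammonium salt of PFOA in deionised water. The question is which transcripts depend on the dose when the receptor PPARα is missing. 4 PPARα-null arrays of mice given water alone serve as the zero dose, and 4 wild-type arrays at each PFOA dose show the same step with the receptor present. The series also holds wild-type mice on water and, in both genotypes, mice given pirinixic acid at 50 mg/kg or its vehicle, 0.5% methylcellulose.

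PFOA is a fluorinated fatty acid analogue that stays in liver for a long time. PPARα is the nuclear receptor that switches on fatty acid oxidation in hepatocytes when fatty acids or their mimics bind. In mice without it, the constitutive androstane receptor (CAR) and the pregnane X receptor (PXR), which induce cytochrome P450, carboxylesterase, glutathione transferase and glucuronosyltransferase genes in response to foreign chemicals, can still act.

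All values are log2 signals from 1-colour microarrays of bulk liver RNA, so 1 unit is a doubling, and in such RNA fewer cells of a type and less RNA per cell cannot be told apart. A probe was called where the adjusted p of limma was under 0.05 over the 25295 probes tested. Errors of differences are standard errors (SE) of that fit, and those of group means are standard deviations (SD, n = 4). Hepatocyte genes read as such in the 8 livers: 8 of the 8 hepatocyte markers measured lay above background, and albumin (Alb) lay between 19.64 and 21.25. Background here is 11.65, the 95th percentile over 583 probes for odorant, taste and keratin-associated genes. Cox6b2, whose signal was 13.29 to 14.52 in wild-type mice on water, was 6.96 to 10.05 on the 8 null arrays, the side their labels give. The sources used here do not say whether the Ppara probe lies in the deleted part, so its signal checks nothing. The array labelled wild type 1 mg/kg replicate 3 had Cox6b2 at 9.06 and went against its label. It enters the shared spread of the fit, and results that rest on it are given with and without it. A group of 130 probes with a median shift of 3.60 splits all arrays into a smaller set of 16 and a larger set of 23. Both null PFOA groups hold replicates 1 and 4 in the smaller set and replicates 2 and 3 in the larger.

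Between 1 and 3 mg/kg, 2 probes rose in PPARα-null liver (0.00791% of those tested) and 0 fell (0%), by limma. They are S100a8, a calcium-binding protein that neutrophils and stressed epithelia make, and Col1a1, the α1 chain of type I collagen. At an unadjusted p under 0.05 there were 1155 probes, 545 higher and 610 lower at 3 mg/kg. With the 8 arrays alone in the fit 0 were called, with 1260 at an unadjusted p under 0.05. The 4 arrays at 3 mg/kg all lay above the 4 at 1 mg/kg for 336 probes (1.33%) and all below for 410 (1.62%). The median difference over all probes was -0.02. The spread among arrays was wider at the higher dose: the median SD over probes was 0.36 at 1 mg/kg and 0.44 at 3 mg/kg, against 0.34 on water. This was not tested, and variation among animals cannot be told apart from variation among arrays. The correlation between arrays ran from 0.957 to 0.971 within the lower dose, from 0.928 to 0.964 within the higher dose, and from 0.942 to 0.970 between the doses. The mean signal of the 583 probes for silent genes was 8.77 to 8.80 at 1 mg/kg and 8.73 to 9.01 at 3 mg/kg, a difference of 0.088 (two-sided exact permutation p = 0.314; 4 against 4 arrays).

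The sequences before the start sites of 4 genes with a called dose trend are shown because the results described after them turn on these genes. Each run is the 250 bases upstream of the RefSeq start (GRCm38.p6, plus strand, 5′ to 3′), with capitals for the nuclear receptor half-sites AGGTCA and AGTTCA and for the TATA element TATAAA, searched on both strands with no overlap among them.
Cyp2c55, chr19:39006769-39007018: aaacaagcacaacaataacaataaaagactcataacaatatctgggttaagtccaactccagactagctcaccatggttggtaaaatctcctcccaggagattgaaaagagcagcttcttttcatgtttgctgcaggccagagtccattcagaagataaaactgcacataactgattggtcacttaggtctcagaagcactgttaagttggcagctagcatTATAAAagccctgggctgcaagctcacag
Cyp2b10, chr7:25897408-25897657: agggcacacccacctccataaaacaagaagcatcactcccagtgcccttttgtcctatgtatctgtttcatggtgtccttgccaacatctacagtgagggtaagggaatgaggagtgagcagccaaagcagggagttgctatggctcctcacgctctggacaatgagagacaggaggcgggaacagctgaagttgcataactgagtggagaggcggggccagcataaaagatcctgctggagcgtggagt
Ces2a, chr8:104733753-104734002: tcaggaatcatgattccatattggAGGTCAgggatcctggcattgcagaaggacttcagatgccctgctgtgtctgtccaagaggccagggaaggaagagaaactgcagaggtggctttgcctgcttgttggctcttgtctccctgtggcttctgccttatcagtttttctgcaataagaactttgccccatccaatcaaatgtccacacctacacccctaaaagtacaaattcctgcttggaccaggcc
S100a8, chr3:90668821-90669070: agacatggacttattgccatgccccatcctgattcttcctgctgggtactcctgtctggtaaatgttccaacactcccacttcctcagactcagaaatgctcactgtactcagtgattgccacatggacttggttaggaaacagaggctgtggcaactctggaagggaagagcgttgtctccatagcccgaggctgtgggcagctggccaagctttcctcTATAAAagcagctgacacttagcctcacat
Cyp2c55 and S100a8 each hold 1 TATAAA, Ces2a holds 1 AGGTCA, and these letters are not in the Cyp2b10 window. Of 32851 mouse windows of the same length, 12.4% hold TATAAA, 14% hold AGGTCA and 11.8% hold AGTTCA on either strand, so a match is common. A match is a description of the letters, not of a bound site.

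S100a8 had the largest difference. Its signal on water was 8.73, 8.16, 8.22 and 7.34, in replicate order. At 1 mg/kg it was 9.91, 7.70, 9.96 and 8.82. At 3 mg/kg it was 15.44, 15.37, 16.54 and 14.85. Every array at the higher dose stood more than 4 units above every other null PFOA or water array, and the 2 lower groups overlapped. The rise from 1 to 3 mg/kg was 6.45 ± 0.70 (SE), an 87.5-fold difference in signal (adjusted p = 4.96e-06). The rise from water to 1 mg/kg was 0.99 ± 0.70 and was not called (unadjusted p = 0.169). The signals on water and at 1 mg/kg lay under the background level, which makes the fold depend on what the probe reads without its target. In the null mice given pirinixic acid it was 10.05 ± 1.71 and in those given methylcellulose 8.48 ± 1.51.

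The probe of S100a9, the partner with which S100a8 forms calprotectin, did not show the difference. Its signal was 10.29 to 11.24 at 1 mg/kg and 10.49, 10.38, 10.47 and 10.38 at 3 mg/kg, a difference of -0.37 ± 0.34 (adjusted p = 0.999). Of the 6 neutrophil markers measured, S100a8 was the 1 that rose; the other 5 had differences of -0.37 to 0.52, and 0 of the 6 had a mean over all arrays above background. The signals of other neutrophil granule genes overlapped between the doses: Ltf, lactotransferrin, was 6.57 to 7.58 at 1 mg/kg and 6.23 to 9.62 at 3 mg/kg, and Retnlg, a resistin-like protein of granulocytes, was 9.87 to 10.93 and 9.74 to 10.32. On the marker lists for macrophages (13 measured), endothelium (14) and lymphocytes (8), 0 members were called in either direction, with median differences of -0.19, -0.07 and 0.06. Markers of cholangiocytes, red blood cells, pancreatic acinar cells, adipocytes and skeletal muscle also had 0 called of 6, 4, 10, 4 and 6 measured. Over all probes 0.00791% were called higher and 0% lower, so 0 called on lists of this size says little about these cell types. Saa3, an acute-phase protein of macrophages and stressed tissue, was 12.71 to 13.15 at 1 mg/kg and 13.74 to 15.26 at 3 mg/kg without overlap, 1.41 ± 0.42, and was not called (adjusted p = 0.628).

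The S100a8 difference was present in both array sets: it was 5.78 within the smaller set (adjusted p = 0.0264) and 7.12 within the larger (adjusted p = 0.173). With the 8 arrays alone in the fit the adjusted p was 0.0553.

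Col1a1 was the other called gene. On water its signal was 10.82, 11.70, 11.47 and 11.55. At 1 mg/kg it was 11.77 to 12.84. At 3 mg/kg it was 15.16, 13.78, 13.74 and 15.29, each above every array at 1 mg/kg, with replicates 1 and 4 well above replicates 2 and 3. The rise from 1 to 3 mg/kg was 2.23 ± 0.38, or 4.70-fold (adjusted p = 0.0251), and the difference from water to 1 mg/kg was 0.87 ± 0.38 and was not called. The 2 high arrays are those of the smaller array set and also have the highest silent-gene means, 8.95 and 9.01 against 8.73 and 8.81. With that mean as a covariate the rise of Col1a1 was 1.96 ± 0.30 (adjusted p = 0.00295). By array set, the difference was 3.34 within that set and 1.13 within the larger, neither called (adjusted p = 0.166 and 0.953). The call was also lost without 3 mg/kg replicate 1 (adjusted p = 0.0873) or 4 (0.192), without 1 mg/kg replicate 1 (0.192), 2 (0.0823) or 4 (0.136), with the 20 null arrays alone (0.0804) and with the 8 arrays alone (0.683).

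The other collagen and fibroblast genes were not called. Of 9 stellate cell and fibroblast markers measured, Col1a1 was the 1 called. Col1a2, whose product joins Col1a1 in type I collagen, differed by -0.00, and Col3a1, type III collagen, by 0.04. Dcn, the matrix proteoglycan decorin, was 18.32 to 18.48 at 1 mg/kg and 18.04 to 18.20 at 3 mg/kg, -0.27 ± 0.13 with no overlap (adjusted p = 0.999). The median of the list was -0.06, beside -0.02 over all probes. Its summed signal (log2 of the sum of linear signals) was 18.7 to 18.9 at 1 mg/kg and 18.6 to 18.8 at 3 mg/kg. Dcn makes up most of that sum, so the sum could not show a change in the dimmer Col1a1.

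**Figure D1:**
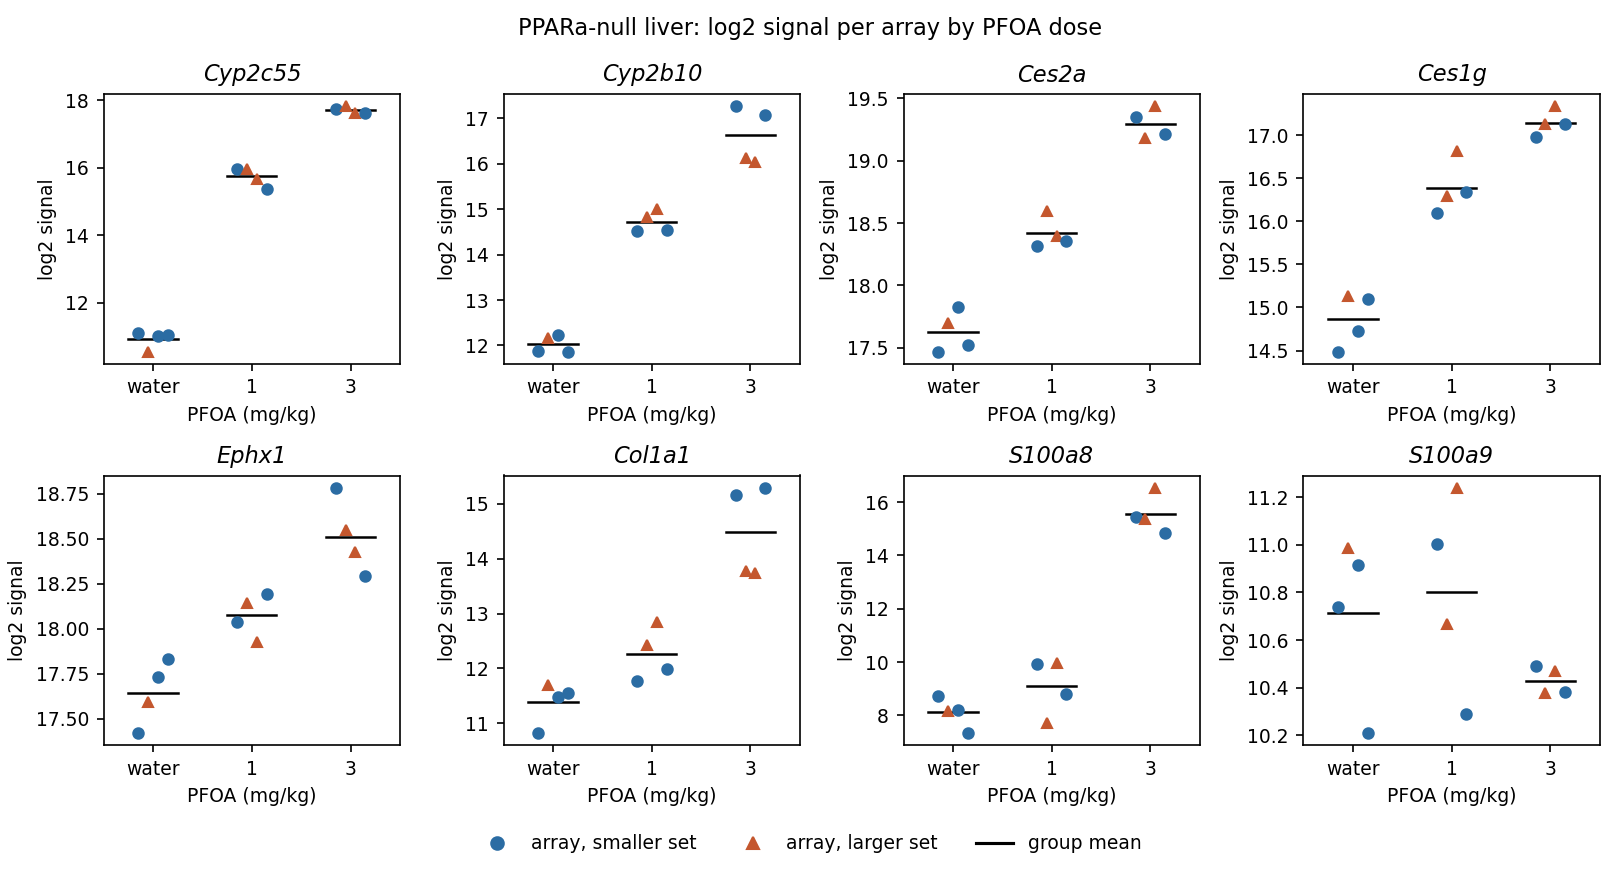
Log2 signal of 8 genes on each PPARα-null array (y axis) by PFOA dose (x axis: water, 1 and 3 mg/kg); circles are arrays of the smaller array set, triangles those of the larger, and lines are group means of 4 arrays. Cyp2c55 is already at 15.75 at 1 mg/kg, whereas S100a8 leaves the level of the water arrays only at 3 mg/kg, S100a9 stays between 10.21 and 11.24, and Col1a1 and Cyp2b10 split by array set at 3 mg/kg. Each y axis has its own range.

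Among the drug-metabolising genes, Cyp2c55 and Ces1g already rose from water to 1 mg/kg. Cyp2c55, a P450 of the CAR and PXR programme, was 10.54 to 11.08 on water. At 1 mg/kg it was 15.98, 15.97, 15.65 and 15.38. At 3 mg/kg it was 17.75, 17.83, 17.63 and 17.61. The 3 groups did not overlap, and the SD at the higher dose was 0.10. The rise from water to 1 mg/kg was 4.83 ± 0.45 (adjusted p = 1.05e-07). The water arrays lay under the background of 11.65, so the size of that rise depends on what the probe reads without its target. The further difference from 1 to 3 mg/kg was 1.96 ± 0.45, 3.89-fold, and was not called in the fit of all arrays (adjusted p = 0.329). Without the array that went against its label the adjusted p was 0.0871, and with the 20 null arrays alone it was 0.0392.

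Cyp2b10, the P450 used as the marker of CAR activity, was 11.87, 12.16, 12.24 and 11.87 on water, 14.53, 14.83, 15.01 and 14.54 at 1 mg/kg, and 17.26, 16.13, 16.05 and 17.08 at 3 mg/kg. The groups did not overlap, and at the higher dose the arrays of the smaller set were again the higher pair. The step from 1 to 3 mg/kg was 1.90 ± 0.58 (adjusted p = 0.69), 2.64 within the smaller set, 1.16 within the larger and 1.45 ± 0.42 with the silent-gene mean as a covariate. From water to 1 mg/kg it was 2.70 ± 0.58 (adjusted p = 0.182), and from water to 3 mg/kg it rose by 4.60 ± 0.58 (adjusted p = 1.96e-05).

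Ces2a, a carboxylesterase that hydrolyses drugs and esters, was 17.47 to 17.83 on water, 18.32, 18.60, 18.40 and 18.36 at 1 mg/kg and 19.35, 19.19, 19.44 and 19.21 at 3 mg/kg. Both steps were about the same size, 0.79 ± 0.19 and 0.88 ± 0.19, and the second had an adjusted p of 0.229. Ces1g, a carboxylesterase that acts on lipid esters, was 16.09, 16.29, 16.82 and 16.34 at 1 mg/kg and 16.98, 17.13, 17.33 and 17.12 at 3 mg/kg. It rose by 1.52 ± 0.22 from water to 1 mg/kg (adjusted p = 0.00158), 66.8% of the response at 3 mg/kg, and the second step was 0.76 ± 0.22 (adjusted p = 0.628). Ephx1, microsomal epoxide hydrolase, was 18.04, 18.14, 17.93 and 18.19 and then 18.78, 18.55, 18.43 and 18.29, with steps of 0.43 ± 0.13 and 0.44 ± 0.13. For all 3 genes each array at 3 mg/kg lay above each array at 1 mg/kg.

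Over the 3 doses together, Cyp2c55, Cyp2b10, Ces2a, Ces1g and Ephx1 rose. The dose trend, a slope fitted over the group means at 0, 1 and 3 mg/kg, rose for 70 probes (0.277%) and fell for 11 (0.0435%) in null liver. Against water, 3 mg/kg raised 66 probes (0.261%) and lowered 10 (0.0395%), and 1 mg/kg raised 3 (0.0119%) and lowered 0 (0%). At an unadjusted p under 0.05 the balance was the other way, with 956 higher and 1147 lower for the trend and 946 higher and 1165 lower for 3 mg/kg against water. The 1 mg/kg comparison had 1003 probes at an unadjusted p under 0.05, 494 of them lower. The 3 called were Cyp2c55, Ces1g and Cnmd, the cartilage glycoprotein chondromodulin, which rose by 1.88 ± 0.32 (adjusted p = 0.0123) and differed by 0.56 ± 0.32 in the second step. The trend and these differences share arrays with the 3 against 1 mg/kg comparison, so they describe the same animals and do not support it independently. The trend count fell to 39 without water replicate 3, 42 without water replicate 1, and 44, 48 and 49 without 3 mg/kg replicates 2, 4 and 1, and it was 47 with only the arrays of that comparison in the fit. The count of 3 mg/kg against water was 43 without water replicate 1 and 45 without water replicate 3. It was 15 with only the arrays of that comparison in the fit and 118 with only probes above the median.

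Over the 70 probes with a rising trend, the median step was 0.67 from water to 1 mg/kg and 0.85 from 1 to 3 mg/kg, and the first step was 46.7% of the sum of both (median). Both steps had the same sign for 68 of the 70. Over the 11 falling probes the median steps were -0.33 and -0.68, the median share was 38.9%, and both steps had the same sign for 11. A called trend favours steps of 1 sign, so these counts describe the shape only. Of the rising probes 39 have 1 gene symbol. For 26 of these all arrays at 3 mg/kg lay above all at 1 mg/kg, beside 1.33% of all probes. The trend was fitted to the same arrays, so it favours such separation and the count is no support for it.

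**Figure D2:**
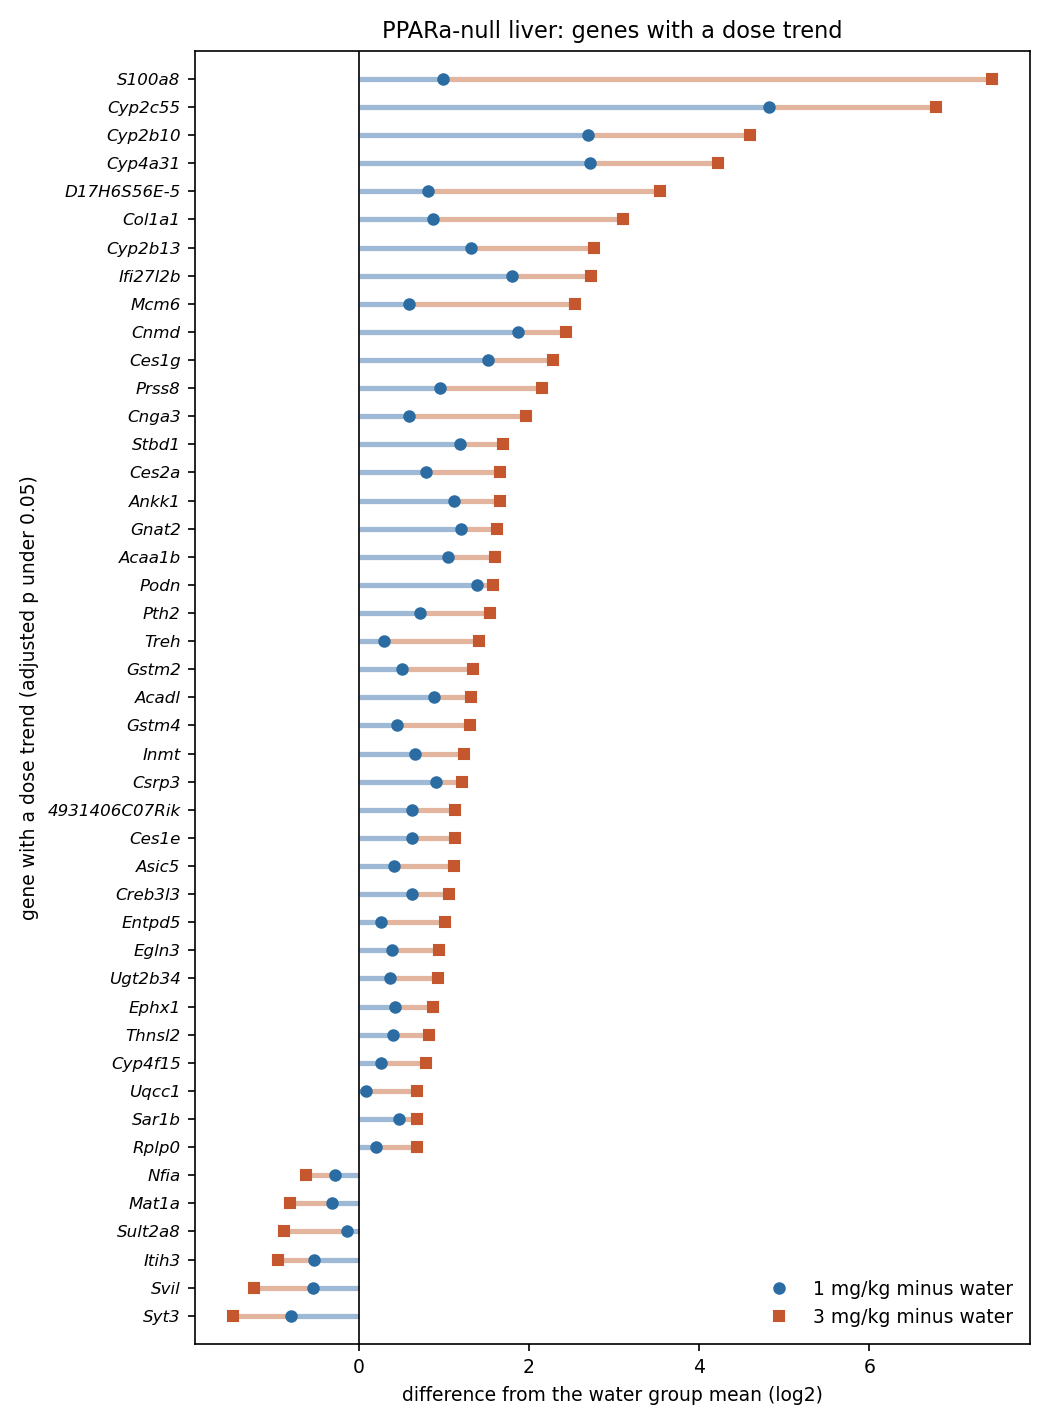
Difference from the water group mean (x axis, log2) at 1 mg/kg (circles) and at 3 mg/kg (squares) for the 45 named genes with a called dose trend in PPARα-null liver (y axis). The blue part of a bar is the step from water to 1 mg/kg and the orange part the step from 1 to 3 mg/kg: the blue part is the longer for Cyp2c55 (4.83 of 6.79) and the orange part for S100a8 (6.45 of 7.44). The blue part was called on its own for Cyp2c55, Ces1g and Cnmd.

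Further genes with a rising trend were Ugt2b34, Gstm4 and Entpd5. Ugt2b34, a glucuronosyltransferase, was 17.99 to 18.22 at 1 mg/kg and 18.55 to 18.77 at 3 mg/kg, with no overlap and a step of 0.56 ± 0.14. Gstm4, a glutathione transferase, was 14.74 to 15.05 and then 15.18 to 16.17, a step of 0.86 ± 0.25. Entpd5, a nucleotide diphosphatase of the endoplasmic reticulum, was 15.31 to 16.10 and then 16.35 to 16.73; its step of 0.76 ± 0.19 was larger than the 0.26 before it. None of these steps was called (adjusted p = 0.428, 0.628 and 0.428). Among genes of fatty acid metabolism with a rising trend, Acaa1b, a peroxisomal thiolase, was 19.70 to 20.03 and then 20.07 to 20.70, Acadl, the long-chain acyl-CoA dehydrogenase of mitochondria, 16.45 to 16.63 and then 16.68 to 17.20, and Creb3l3, a liver transcription factor of lipid metabolism, 16.32 to 16.42 and then 16.67 to 16.99. Each of the 3 was without overlap, with steps of 0.55, 0.44 and 0.43. Ifi27l2b, an interferon-inducible gene, was 12.28 to 13.13 and then 13.24 to 14.34, a step of 0.93 ± 0.40 after 1.80 from water. Elovl1, a fatty acid elongase, showed its difference at the higher dose alone: 14.40 to 14.44 at 1 mg/kg, close to its 14.22 to 14.67 on water, and 14.70 to 15.26 at 3 mg/kg, 0.58 ± 0.15 (adjusted p = 0.443), and its trend was not called.

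Of the 11 probes with a called falling trend, 6 have 1 gene symbol. Sult2a8, a liver sulfotransferase that acts on bile acids, was 18.21, 17.87, 17.89 and 18.69 at 1 mg/kg and 17.23, 17.32, 17.80 and 17.33 at 3 mg/kg. Its trend fell (adjusted p = 0.0151); the step was -0.74 ± 0.19 (adjusted p = 0.428) after -0.14 from water. Nfia, a transcription factor, was 13.94 to 14.18 and then 13.69 to 13.79, and Itih3, a plasma inhibitor chain that binds hyaluronan, was 18.61 to 19.14 and then 18.30 to 18.55, both without overlap and with a falling trend (adjusted p = 0.0219 and 0.0307). Mat1a, which makes S-adenosylmethionine in hepatocytes, also had a falling trend (adjusted p = 0.0426) but its arrays overlapped, at 20.12 to 20.52 and 19.13 to 20.29. Syt3 and Svil, a synaptotagmin and the actin-binding protein supervillin, fell in the trend too, with overlapping arrays and steps of -0.68 and -0.70. Their mean signals at 1 and 3 mg/kg lay under the background of 11.65.

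Other genes ranked by the smallest p among those whose arrays did not overlap were lower at 3 mg/kg without a called change in any dose comparison of the null mice. They were Zc3h6, Cabcoco1, Zxdc, Cdkn1c, Clec2d, Rassf5, Inpp5e, Snapc3 and Pikfyve, with differences of -0.51 to -1.39 and adjusted p of 0.428 to 0.783. Zc3h6, Cabcoco1, Zxdc, Inpp5e, Snapc3 and Pikfyve had mean signals under the background of 11.65 at both doses, and Cdkn1c and Rassf5 at 3 mg/kg. Such signals cannot be told from those of silent genes. Cdkn1c, an inhibitor of cyclin-dependent kinases, was 11.58 to 12.28 at 1 mg/kg and 10.94 to 11.54 at 3 mg/kg. Clec2d, a lectin-like ligand of natural killer cell receptors, was 18.38 to 18.73 and 17.82 to 18.22. At 1 mg/kg each of the 9 lay within 0.62 of its level on water in the mean.

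By gene list, 7 of the 37 measured members of the CAR and PXR programme had separated arrays in the upward direction. This and the other gene lists were chosen with earlier results of these data known, so their counts describe them and test no enrichment. Of the 37, 0 were called between the doses, beside 0.00791% called higher and 0% lower over all probes. All arrays at 3 mg/kg lay below those at 1 mg/kg for 0 of the 37. Over all probes 1.33% were separated upward and 1.62% downward. The 7 were Cyp2c55, Cyp2b10, Cyp2b13, Ces2a, Gstm2, Ugt2b34 and Cyp3a13. The median difference was 0.20, and against water 6 of the 37 rose at 3 mg/kg and 1 at 1 mg/kg, beside 0.261% and 0.0119% of all probes. Alas1, which makes heme for the P450s, did not follow: it was 17.56, 16.70, 16.52 and 17.48 at 1 mg/kg and 15.98, 15.81, 15.52 and 17.52 at 3 mg/kg, -0.86 ± 0.52 with overlap. Signal of Nr1i3, the gene of CAR itself, was 16.44 to 16.64 and 16.28 to 16.61.

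The list of NRF2 and glutathione genes, which answer oxidants and electrophiles, had 5 of 33 members with arrays separated upward and 1 downward, beside 1.33% and 1.62% of all probes, a median of 0.11 and 0 called (0.00791% of all probes were called higher). Srxn1, sulfiredoxin, was 11.76 to 12.28 at 1 mg/kg, within its 11.71 to 12.32 on water, and 12.39 to 13.09 at 3 mg/kg, 0.76 ± 0.30 (adjusted p = 0.92). For fatty acid ω-oxidation and handling, 6 of 26 members were separated upward and 0 downward, beside the same 1.33% and 1.62%, with a median of 0.15. Cyp4a31, a fatty acid ω-hydroxylase, was 10.01 to 11.02 and then 11.39 to 12.40; its step was 1.50 ± 0.82 and its trend was called (adjusted p = 0.0172). Cyp4a14, of the same family, was 11.43 to 12.41 and 12.62 to 14.89, but on water it ran from 6.63 to 14.15, so its step of 1.80 ± 1.65 is within the spread of the untreated mice.

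The medians of the peroxisomal and mitochondrial fatty acid oxidation lists lay near that of all probes. The median difference was 0.02 over 33 peroxisomal genes and 0.04 over 17 mitochondrial genes, beside -0.02 over all probes. On either list 0 were called between the doses (0.00791% of all probes were called higher). Of the 33, 2 were separated upward and 0 downward, and of the 17, 2 upward and 1 downward, beside 1.33% and 1.62% of all probes. Each list had 1 member with a called rising trend, beside 0.277% of all probes. Ehhadh, the bifunctional enzyme of peroxisomal β-oxidation, was 16.36, 16.01, 16.28 and 16.36 at 1 mg/kg and 17.07, 16.86, 15.79 and 16.71 at 3 mg/kg, 0.35 ± 0.52 with overlap. Acot1, a cytosolic acyl-CoA thioesterase, was 15.34 to 16.28 and 16.44 to 17.05 without overlap, 0.79 ± 0.51 (adjusted p = 0.999).

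Cell cycle and replication genes had a median of 0.25 over 43 measured genes, the highest of the 25 pathway lists. On this list 0 members were separated in either direction, beside 1.33% upward and 1.62% downward over all probes. Between the doses 0 were called (0.00791% of all probes were called higher). At such shares a list of 43 can hold 0 without differing from all probes. Their levels were low: 10 of the 43 had a mean above background. Mcm6, a subunit of the replicative helicase, was 8.06, 10.55, 9.15 and 8.41 at 1 mg/kg and 10.70, 11.07, 10.51 and 11.70 at 3 mg/kg, 1.95 ± 0.52, and was the 1 member with a called trend (adjusted p = 0.0128). Cdc20, an activator of mitotic protein degradation, was 8.64 to 10.79 and 9.84 to 11.77, and Ccnd1, cyclin D1, was 11.49 to 12.36 and 11.88 to 12.84. Both overlapped between the doses.

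Several lists had a negative median. For interferon-inducible genes the median over 41 was -0.17, with 1 member separated upward (Ifi27l2b) and 3 downward, beside 1.33% and 1.62% of all probes. The 3 were Psmb10, a subunit of the immunoproteasome, at 14.11 to 14.37 and then 13.50 to 13.91, together with Ifitm3 and Irf7. Acute-phase genes had a median of -0.20 over 23, with 1 separated upward and 1 downward. Complement and coagulation genes had -0.09 over 41 (0 upward, 2 downward), and amino acid and urea genes -0.13 over 36 (0 upward, 1 downward). The signal of Nr3c1, the glucocorticoid receptor gene, was 9.40 to 10.34 at 1 mg/kg and 7.21 to 8.89 at 3 mg/kg, -1.73 ± 0.44 without overlap (adjusted p = 0.428), at levels under the background of 11.65. The remaining lists (AHR targets, cholesterol and fatty acid synthesis, bile acids, lipoproteins, glucose, lipid droplets, male- and female-biased genes, clock, chaperones, p53 and Gadd45, proteasome, oxidative phosphorylation and nuclear receptors) had medians between -0.28 and 0.09 and 0 members called between the doses (0.00791% of all probes were called higher). Among these lists, bile acid genes had the most members separated in 1 direction, 2 of 26 downward, with 0 upward.

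**Figure D3:**
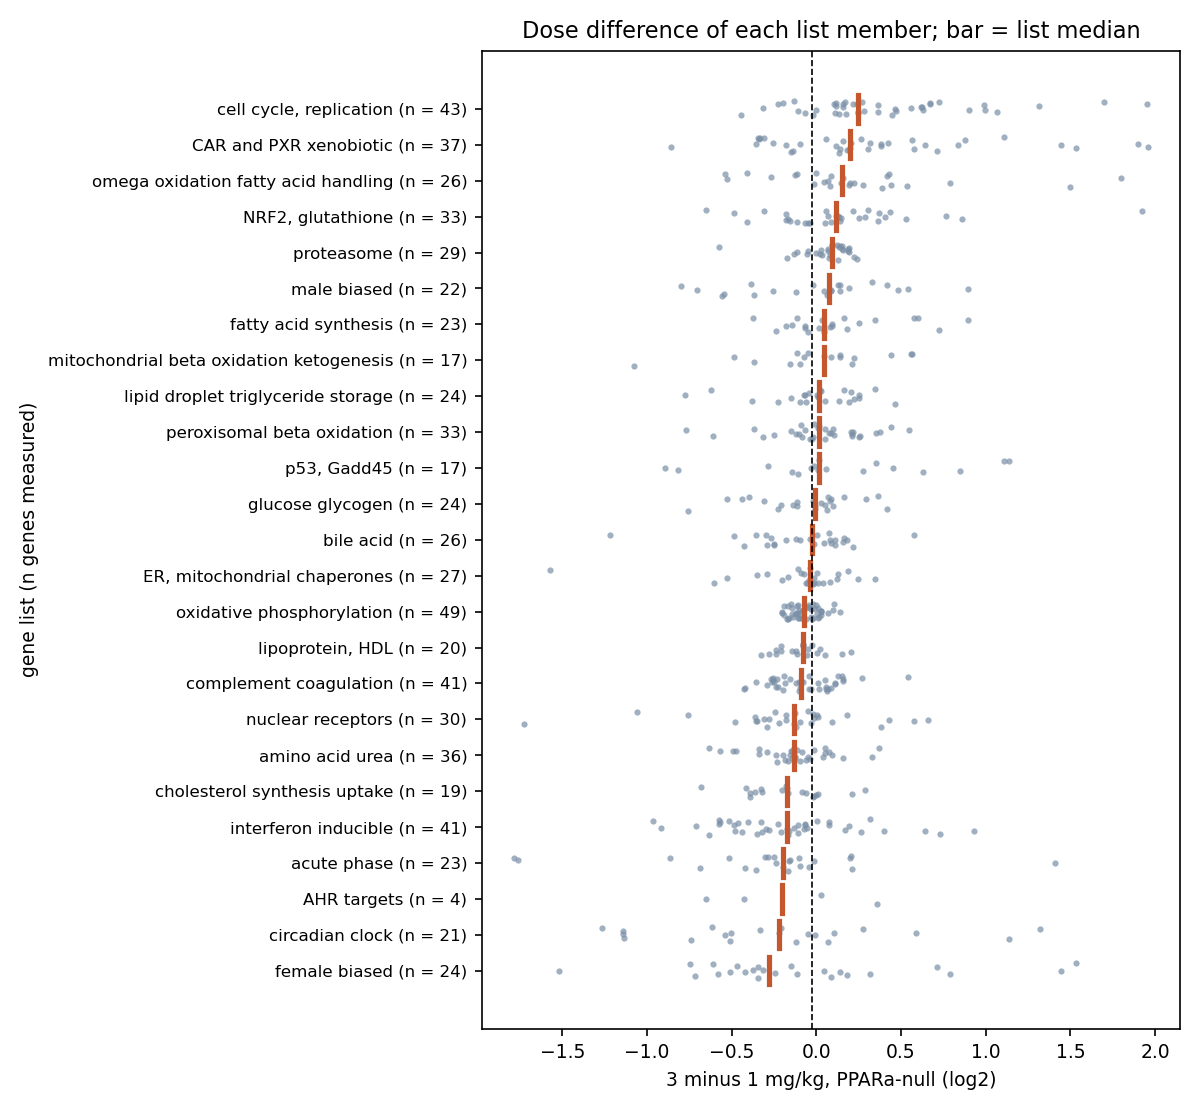
Difference between 3 and 1 mg/kg in PPARα-null liver (x axis, log2) for each measured gene (points) of 25 gene lists (y axis, number measured in brackets); thick bars are list medians and the dashed line is the median of all probes, -0.02. Medians run from -0.28 (female-biased genes) to 0.25 (cell cycle and replication), and most points lie within 1 unit of the line.

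In wild-type mice the same dose step raised 4 probes (0.0158%) and lowered 3 (0.0119%), 7 in all. A fit that blocked on replicate number called 4. Without the array that went against its label it called 2. These 2 were Cd36, a fatty acid transporter, which then rose by 1.30 ± 0.22, and Ifitm3, an interferon-inducible membrane protein, which then fell by 1.03 (both adjusted p = 0.0235). In null mice Cd36 was 12.66 to 13.21 at 1 mg/kg and 12.73 to 13.19 at 3 mg/kg, 0.09 ± 0.39. Ifitm3 was 18.84 to 19.19 and 18.62 to 18.80 in null mice, -0.35 ± 0.21 without overlap and not called. The difference between genotypes in this step was not called for either (adjusted p = 0.825 for both, and 0.759 for Cd36 without that array), so the genotypes are not shown to differ there.

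The genotype difference in the dose step was called for 2 probes, both higher in null mice (0.00791%), and 0 lower (0%), with 1053 probes at an unadjusted p under 0.05, 545 of them lower. The named one was S100a8. It was 9.28, 8.25, 11.03 and 8.38 on the wild-type arrays at 1 mg/kg and 9.15, 7.50, 8.78 and 8.92 at 3 mg/kg, where all 4 lay among the lower-dose and water values of null mice. Its step was -0.65 ± 0.70 in wild type and 6.45 in null, a difference of 7.10 ± 0.99 (adjusted p = 0.00111), or 6.50 ± 0.97 without the array that went against its label (adjusted p = 0.00506). The other called probe has no gene symbol. For the drug-metabolising genes no genotype difference was called. The step of Cyp2c55 was 0.84 ± 0.45 in wild type (1.43 ± 0.40 without the array that went against its label) and 1.96 in null. That of Cyp2b10 was 1.07 ± 0.58 in wild type (1.42 ± 0.61 without that array) and 1.90 in null. That of Ces2a was -0.09 ± 0.19 in wild type (-0.01 ± 0.20 without that array) and 0.88 in null.

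**Figure D4:**
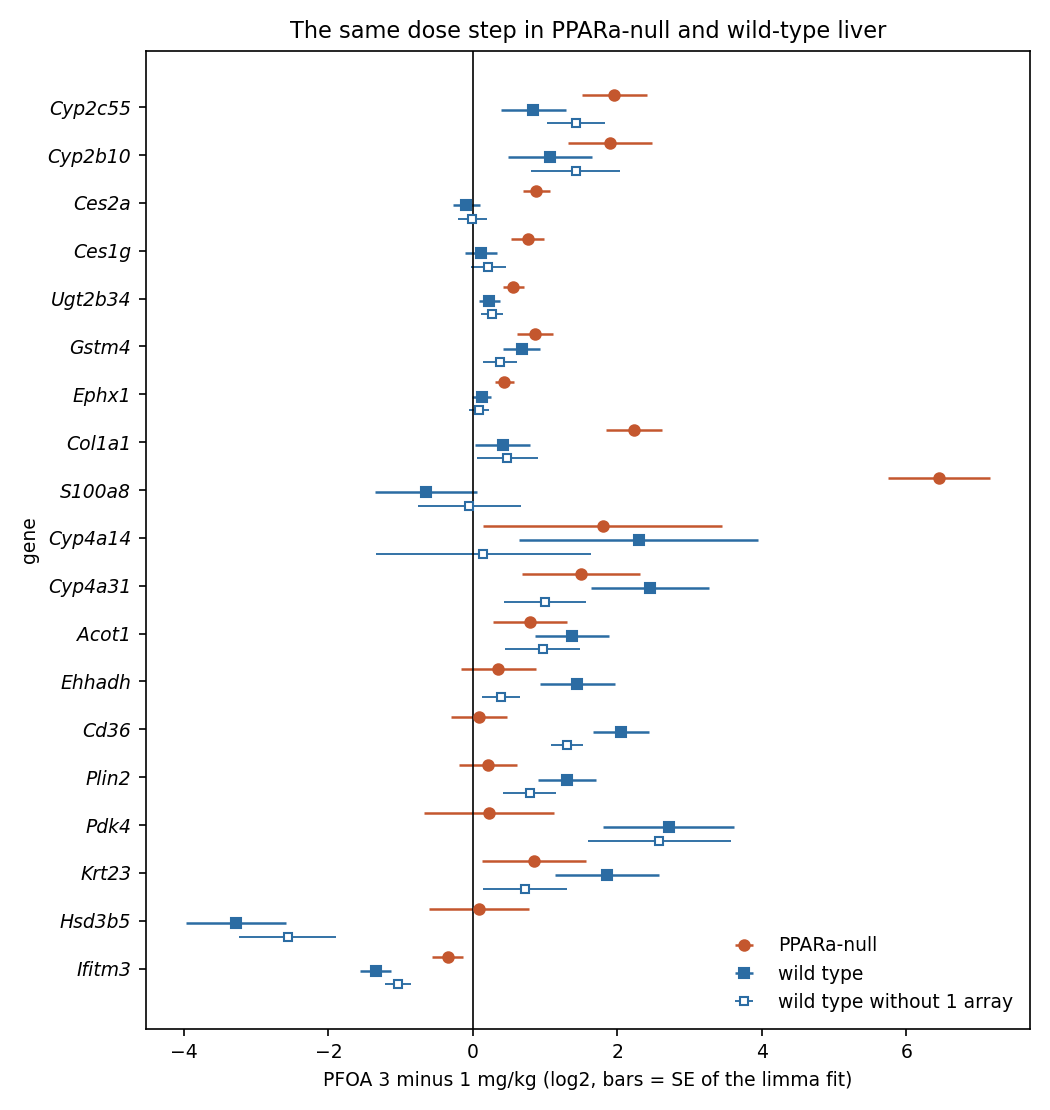
Difference between 3 and 1 mg/kg PFOA (x axis, log2) for 19 genes (y axis) in PPARα-null mice (circles, 4 against 4 arrays) and wild-type mice (filled squares, 4 against 4; open squares, without the wild-type 1 mg/kg array that went against its label); bars are standard errors of the limma fit. S100a8 is at 6.45 in null and -0.65 in wild type, and leaving out that array moves Ehhadh in wild type from 1.45 to 0.39.

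Genes that PFOA changes when the receptor is present were followed along the null dose step. In wild-type mice 1473 probes (5.82%) differed between 3 mg/kg and water, on arrays that the null groups do not share, though all arrays share 1 estimate of the spread. Of the 852 that rose there, 51 (5.99%) had null arrays separated upward between 1 and 3 mg/kg and 6 (0.704%) downward, beside 1.33% and 1.62% of all probes, and the median null difference was 0.07. Of the 621 that fell there, 39 (6.28%) were separated downward and 4 (0.644%) upward, with a median of -0.10. In null mice 0 of these 1473 probes were called between the doses by limma. Over all probes 0.00791% were called higher and 0% lower, so this 0 says little.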

How the data were processed

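Liver RNA of 39 mice was measured on 1-colour arrays. The authors deposited log2 signals of 33012 probes, already normalized, as each array has the same median of 9.14. The log base was inferred from the values (4.85 to 21.5). Background correction, normalization method and software: not given in the sources used here. The 25295 probes with a value on every array were tested, and 7717 with missing values were left out. Gene names come from the platform annotation: 14411 probes have 1 gene, 247 have several and 18354 have none, and 14402 matched RefSeq by Entrez ID.

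One limma model (version 3.58.1, R 4.3.3) with a mean for each of the 10 groups was fitted to all 39 arrays, with moderated variances (29 residual degrees of freedom) and Benjamini-Hochberg adjustment over all probes, and was first tested on simulated data. Groups follow the titles, with 4 animals each in the groups used. The number of arrays limits the precision. Exact permutation tests were two-sided. Promoter windows are from RefSeq, GRCm38.p6.

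Genes are named where they were called between the doses (up to 15 each way), otherwise the 10 each way with the smallest p and no overlap; where the dose trend (up to 10 each way) or the genotype difference (up to 5 each way) was called; as up to 4 members of a list; or from a set of receptor and drug-response genes. Other names (members of marker lists, trend genes beyond the 10, genes among separated list members) were chosen after their values were seen. Where several probes matched 1 gene, the brightest is shown. The members and lists were chosen with earlier results of these data known.

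Arrays with the same replicate number deviated together at both doses (correlations of 0.139, 0.105, 0.174 and 0.188 between the deviations from the group means), so the numbers were used as a block in 1 alternative. The 3 mg/kg replicate 1 matched 1 mg/kg replicate 4 best. Replicates 1 and 4 of both groups share an array set, as do 2 and 3, so these correlations do not establish pairing by number. Alternatives were the replicate block, the array set as a block, the silent-gene index as a covariate, fewer arrays or probes, other variance moderation, other scaling, missing values kept, and leaving out each array. The fit without the array that went against its label and that of the null arrays alone were chosen after seeing the data.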

Additional observations from a re-analysis of the deposited data

Results flagged for a closer look

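In 11 of 150 groups of 4 arrays tested, 1 array stood apart from the other 3 by Dixon's criterion at 95%; chance flags about 1 in 20 groups. On water, Cyp2c55 was 10.54 on 1 null array and up to 11.08 on the others, Gstm4 14.26 against 14.44 to 14.45, Cabcoco1 11.81 against 10.76 to 10.86, Snapc3 8.87 against 9.86 to 10.01, Itih3 19.80 against 19.17 to 19.27, and Ifitm3 19.47 against 18.94 to 19.02. At 1 mg/kg, Pikfyve was 11.53 against 10.12 to 10.14, and Nr1i3 was 16.44 against 16.63 to 16.64. At 3 mg/kg, Zc3h6 was 9.07 against 10.16 to 10.36, Sult2a8 17.80 against 17.23 to 17.33, and Cnmd 15.46 against at most 15.06.

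The step of S100a8 from 1 to 3 mg/kg differed between the genotypes by 7.10 (limma, adjusted p = 0.00111).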

How the results depend on the processing

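Counts are of probes called by limma, where the fit of all arrays gave 2 between the null doses, 81 for the trend, 76 for 3 mg/kg and 3 for 1 mg/kg against water, 7 for the wild-type dose step and 2 for the genotype difference. With the replicate block the wild-type count was 4, and the block changed no other count by over 1.5 times (trend 94). With the silent-gene index as a covariate, 1 mg/kg against water gave 7 and wild type 11. With only the arrays of each comparison, the counts were 0 between the null doses (1260 at an unadjusted p under 0.05), 47 for the trend, 15 for 3 mg/kg against water, 0 for wild type (1257 unadjusted) and 1 for the genotype difference. With a variance trend and robust moderation, wild type gave 13 and the genotype difference 4; with cyclic loess, wild type gave 11; with missing values kept, 2. With only probes above the median, the null doses gave 1, 3 mg/kg against water 118 and the genotype difference 0 (402 unadjusted). That filter kept probes with a mean over all arrays above 10.09. It left out S100a8 (9.58) and the unnamed probe of the genotype difference (7.46), so neither could be called there. The null arrays alone gave 5 for 1 mg/kg against water. Within the smaller array set the null doses gave 1 and within the larger 0 (1182 unadjusted). Leaving out 1 array at a time gave 1 to 5 between the null doses (5 without 3 mg/kg replicate 2, 4 without replicate 1, and 1 without 3 mg/kg replicate 4 or 1 mg/kg replicate 1, 2 or 4), 39 to 88 for the trend, 43 to 84 for 3 mg/kg against water, 2 to 3 for 1 mg/kg against water, 2 to 10 for wild type (2 without 1 mg/kg replicate 3 or 4 or 3 mg/kg replicate 3) and 1 to 5 for the genotype difference (5 without null 3 mg/kg replicate 1). The cause was not tested. Of 3395 values of 172 named genes between the null doses, 11 lost a call, 1 gained one and 0 called values reversed. Signals below 11.65 cannot be told from silent genes.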
